A study of Homo sapiens with 12 samples.

Results

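A group of 10 genes that interferons switch on was followed through polysome-fraction RNA of HEK293 cells, namely ISG15, IFIT1, IFIT2, IFIT3, IFITM1, IFITM2, IFITM3, IFI6, IFI35 and OASL. They were taken by symbol, and all 10 were listed in both deposited tables, among 23284 symbols in a first experiment and 12421 in a knockout experiment. The series asks whether STING, an adaptor of cytosolic DNA sensing, acts through the kinase PERK on which mRNAs are translated. Its 12 libraries form 6 groups of 2. In the first experiment HEK293 cells, a human embryonic kidney line, received 5 ug of a STING plasmid or of empty vector for 24 h. In the knockout experiment PERK KO cells received STING or vector, and wild-type cells received STING or vector, again with 5 ug for 24 h. The sources used here do not tell how the PERK KO cells were made or whether they are 1 clone. Nor do they tell whether the 2 libraries of a group came from different cultures, and the spread behind each p-value may be only technical.

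Polysome fractions were collected from sucrose gradients after cycloheximide had halted ribosomes, and polyadenylated RNA was copied by Smart-seq2. A level therefore combines the amount of an mRNA with its loading on ribosomes, and total RNA was not analysed here. In these bulk samples a change in fewer cells and a change in RNA per cell cannot be told apart. Values are FPKM, fragments scaled to transcript length and library size. In the knockout experiment the table names no unit, was read as FPKM, and has a floor of 1 at which between 13.1% and 18.1% of symbols stood in a library. The tables were normalised separately, so levels from both are not on a shared scale. Read counts were not used here, so the depth is unknown and no counting interval is given.

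STING activates the kinase TBK1, which phosphorylates the transcription factor IRF3. IRF3 can switch on some interferon-stimulated genes directly, and it also switches on interferon beta. Secreted interferon then acts through its receptor and the kinases JAK1 and TYK2 on ISGF3, a transcription factor complex that includes STAT2 and IRF9. ISGF3 binds the interferon-stimulated response element, a pair of GAAA blocks set a short distance apart. ISG15 is a ubiquitin-like protein that is joined to other proteins and also secreted. The IFIT proteins bind RNA ends that mark viral transcripts, and the IFITM proteins sit in membranes and hinder the entry of enveloped viruses. IFI6 is a small hydrophobic protein of internal membranes, IFI35 is a partner of NMI, and OASL is a relative of the oligoadenylate synthetases that lacks their enzyme activity.

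Promoter sequence from RefSeq on build GRCh38.p14 was matched by symbol for ISG15, IFIT1, IFIT3, IFITM1, IFITM3, IFI6 and IFI35, with 8 start sites because IFIT3 has a pair of them. The response element was searched as GAAA, any 2 bases and GAAA, or on the other strand TTTC, any 2 bases and TTTC, in the 250 bases before each start site. It was found before 7 of the 8 start sites, and at least 2 times before 6 of them. Of 35116 RefSeq start sites, 3.02% had a match and 0.225% had at least 2. IFI35 had no match in this window. The windows below show the matches in capitals on the strand of the gene, because genes that moved in opposite directions in the results share these letters. The match is a description of the letters, not evidence of a bound factor.
ISG15 (chr1:1013369-1013414, + strand): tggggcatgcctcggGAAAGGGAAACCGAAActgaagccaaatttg
IFIT1 (chr10:89392492-89392544, + strand): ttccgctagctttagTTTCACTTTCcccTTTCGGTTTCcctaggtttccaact
IFIT3, first start (chr10:89327826-89327899, + strand): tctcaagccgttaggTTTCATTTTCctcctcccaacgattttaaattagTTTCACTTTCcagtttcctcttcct
IFIT3, other start (chr10:89332420-89332502, + strand): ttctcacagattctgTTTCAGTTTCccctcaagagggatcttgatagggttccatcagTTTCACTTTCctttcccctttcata
IFITM1 (chr11:313985-314024, + strand): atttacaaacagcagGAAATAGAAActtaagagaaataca
IFITM3 (chr11:320871-320927, - strand): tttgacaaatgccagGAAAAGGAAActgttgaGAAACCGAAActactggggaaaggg
IFI6 (chr1:27672261-27672363, - strand): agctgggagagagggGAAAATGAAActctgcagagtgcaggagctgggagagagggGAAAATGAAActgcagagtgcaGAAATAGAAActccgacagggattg
In ISG15 the 2 matches overlap and stand 113 to 98 bases before the start site, and in IFI6 the 3 matches span 156 to 84 bases before it. The 2 matches of IFITM3 lie 52 to 26 bases before the start site. The match shown for IFITM1 lies 40 to 31 bases before it, and IFITM1 had 2 matches when bases after the start site were searched too.

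The transfected gene was measured first. TMEM173, the older symbol of STING, stood at 65157 and 69253 FPKM in the STING libraries of the first experiment, against 14.9 and 13.8 FPKM with vector. PERK KO cells of the knockout experiment had 10512 and 7338 FPKM of it with STING, against 23.5 and 43.8 FPKM with vector. Wild-type cells had 41812 and 40660 FPKM with STING, against 23.1 and 36.7 FPKM with vector. Both PERK KO libraries with STING thus lay below both wild-type libraries with STING. The interaction term for TMEM173 was -2.37 (SE 0.48), with a limma p of 0.00133 unadjusted and 0.966 after adjustment over all genes tested. EIF2AK3, the gene of PERK, was at the floor of 1 in all knockout-experiment libraries but 1, a PERK KO library with STING at 1.15 FPKM, so it cannot check the knockout label.

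Of 8 markers listed for HEK293 cells, KRT18, KRT8 and VIM averaged over 5 FPKM in both experiments. VIM passed the test in the first experiment, with 75.0 and 75.1 FPKM with STING, against 47.5 and 44.9 FPKM with vector. The neurofilament gene NEFM was listed at 0 throughout the first experiment, and NES and PAX2 averaged under 1 FPKM there. Of 8 markers of blood cells PTPRC, CD3E and HBB were listed at 0 in the first experiment. Summed, the blood cell markers ranged from 4.04 to 5.31 FPKM with STING, against a range of 7.85 to 10.3 FPKM with vector, and their part in the results was not tested. The summed 6 fibroblast markers stayed under 1 FPKM, with COL1A2, DCN and LUM at 0.

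**Figure D1:**
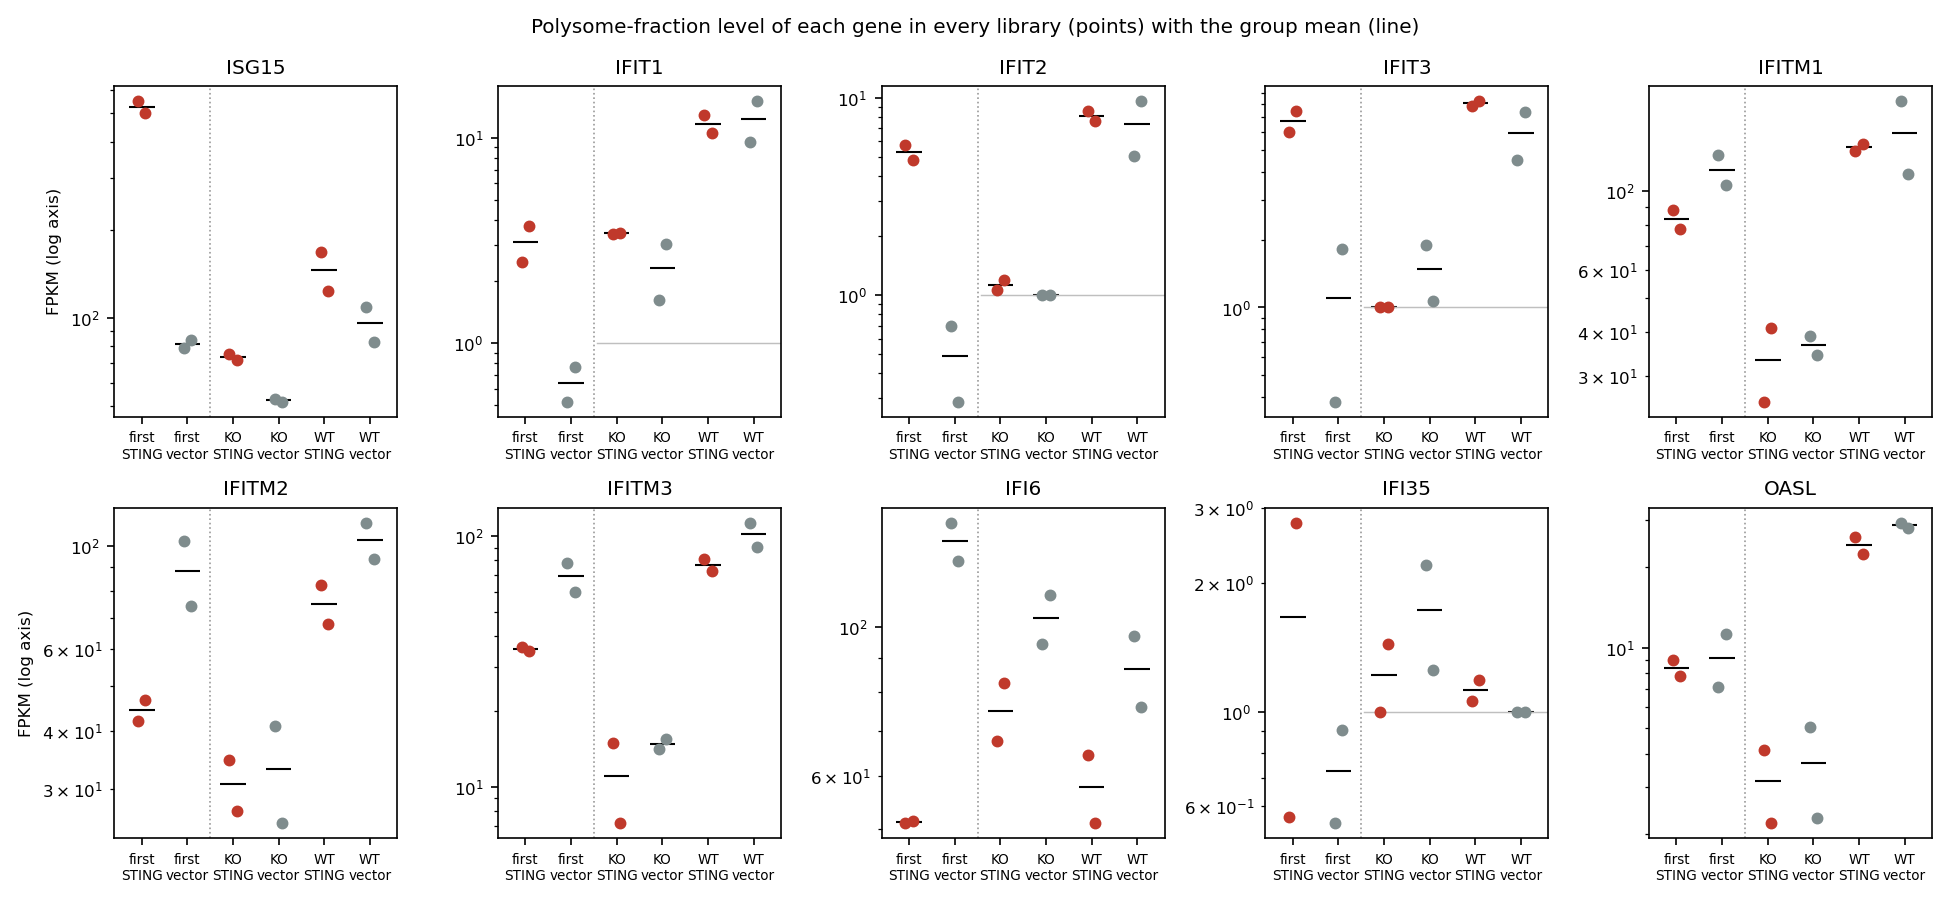
Level of each of the 10 genes in FPKM (log axis) in every library (points, red with STING and grey with vector), with the mean of the 2 libraries as a line; the dotted line parts the first experiment from the knockout experiment, whose tables are not on a shared scale, and the grey line marks the floor of 1. ISG15 reached 551 and 501 FPKM with STING in the first experiment, and OASL and IFITM3 stand lower in PERK KO cells than in wild-type cells with either plasmid.

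The first comparison set STING against vector in the first experiment. ISG15 and the 3 IFIT genes rose with STING, and IFI6, IFITM2 and IFITM3 fell. IFITM1, IFI35 and OASL did not pass the test. In all, 7 of the 10 genes passed in limma after adjustment over 9464 genes (Benjamini-Hochberg, threshold 0.05), 4 higher and 3 lower, and with either STING library left out 1 of the 10, ISG15, passed. The background was 11.8% of all genes tested, with 2.51% higher and 9.29% lower. With median-of-ratios scaling 67.3% of all calls were lower, and with quantile normalisation 55.5%, against 78.7% as deposited. The median change of the 10 genes was 0.21, and that of all genes tested was -0.05 (log2).

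ISG15 had 551 and 501 FPKM in the STING libraries, against 78.6 and 84.0 FPKM in the vector libraries. The groups were far apart, with both STING libraries above both vector libraries. The log2 change was 2.68 (SE 0.11, limma adjusted p = 1.6e-05), a ratio of means of 6.47. With any of the 4 libraries removed ISG15 still passed (limma adjusted p of at most 0.00839), and no other of the 10 genes did so with all 4. The ISG15 level made up 69.5% and 67.8% of the summed FPKM of the 10 genes with STING, against 14.6% and 18.1% with vector.

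The IFIT genes lay near the lower end of the table with vector and rose together with STING. IFIT1, which binds RNA caps that lack a methyl mark, had 2.50 and 3.71 FPKM with STING, against 0.518 and 0.762 FPKM with vector (log2 change 1.31, SE 0.27, limma adjusted p = 0.0214). IFIT2, a partner of IFIT1 and IFIT3, had 5.74 and 4.81 FPKM with STING, against 0.695 and 0.288 FPKM with vector (log2 change 2.08, SE 0.26, limma adjusted p = 0.00372). IFIT3, which stabilises IFIT1, had 6.03 and 7.46 FPKM with STING, against 0.381 and 1.82 FPKM with vector (log2 change 1.97, SE 0.36, limma adjusted p = 0.014). Both STING libraries lay above both vector libraries for each of the 3 genes, as for 24.2% of all genes tested. IFIT1, IFIT2 and also IFI35 averaged under 1 FPKM with vector, so they passed the minimum mean of 1 only through the STING libraries. Without that minimum IFIT1 missed the threshold (limma adjusted p = 0.0542), and IFIT2 and IFIT3 passed (0.0176 and 0.0489). IFIT2 and IFIT3 missed it without STING library 1 (0.126 and 0.175) and without STING library 2 (0.113 and 0.192), and IFIT1 missed it whichever of the 4 libraries was left out (0.0572 to 0.205).

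The IFITM genes stood at 34.8 FPKM or more in every library of the first experiment, and 2 of the 3 fell with STING. IFITM2, which acts mainly in endosomes, had 42.1 and 46.7 FPKM with STING, against 102 and 74.3 FPKM with vector (log2 change -0.96, SE 0.18, limma adjusted p = 0.0134). IFITM3, which restricts influenza virus, had 36.3 and 34.8 FPKM with STING, against 78.3 and 59.8 FPKM with vector (log2 change -0.93, SE 0.17, limma adjusted p = 0.0128). IFITM1, found mainly at the cell surface, had 88.6 and 78.1 FPKM with STING, against 126 and 104 FPKM with vector (log2 change -0.46, SE 0.14, limma adjusted p = 0.0827). All 3 genes had both STING libraries below both vector libraries, as did 32.8% of all genes tested. IFITM2 and IFITM3 missed the threshold with quantile normalisation (limma adjusted p = 0.0687 and 0.0608), without STING library 1 (0.213 and 0.177) and without STING library 2 (0.166 and 0.177). Read sharing was checked in GENCODE release 29 with windows of 150 bases, the read length. Up to 36.8% of the windows in an IFITM1 transcript also occur in a transcript assigned to IFITM2. Only 1 IFITM2 transcript, of 382 bases, shares windows with IFITM1, in 91.8% of its windows, and the other IFITM2 transcripts share 0.0%. The split of reads between these 2 genes is uncertain over the shared windows. No IFITM3 transcript had such a window.

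IFI6 fell most among the 10 genes. It had 50.9 and 51.3 FPKM with STING, against 143 and 126 FPKM with vector (log2 change -1.37, SE 0.13, limma adjusted p = 0.00155). Its groups were clearly separate. The window shown for IFI6 holds 3 response element matches, and that of ISG15, which rose, holds 2. The part of these matches in either change was not tested. With STING library 1 left out the limma adjusted p of IFI6 was 0.0909, and with STING library 2 left out it was 0.0907. IFI35 had 0.564 and 2.78 FPKM with STING, against 0.547 and 0.905 FPKM with vector, and the groups overlapped (limma adjusted p = 0.51). OASL, which promotes signalling by the RNA sensor RIG-I, had 8.95 and 7.80 FPKM with STING, against 7.10 and 11.2 FPKM with vector. Its groups overlapped too, with a log2 change of -0.09 (SE 0.25, limma adjusted p = 0.854).

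**Figure D2:**
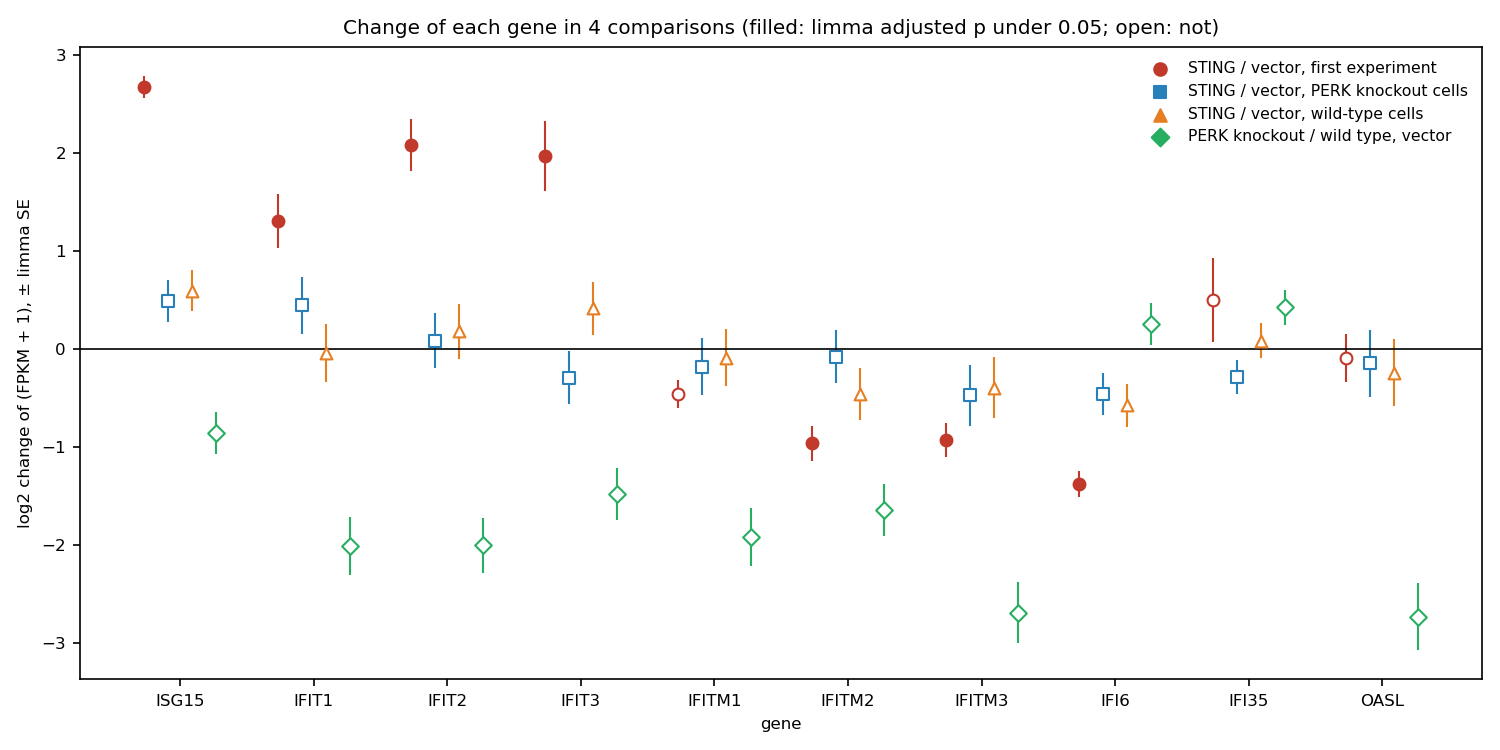
Log2 change of (FPKM + 1) with its limma standard error for each of the 10 genes in 4 comparisons (symbols and colours), filled where the limma adjusted p was under 0.05. The filled points all belong to the first experiment, with ISG15 at 2.68 and IFI6 at -1.37, while the points for PERK KO against wild-type cells with vector lie under 0 for 8 of the 10 genes.

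Levels of the upstream pathway were then read in the same experiment. IFNB1, the gene of interferon beta, had 6.96 and 8.63 FPKM with STING, against 4.05 and 8.43 FPKM with vector, and did not pass (limma adjusted p = 0.537). IRF9 had 1.40 and 0.877 FPKM with STING, against 1.36 and 1.07 FPKM with vector (limma adjusted p = 0.92). STAT2 had 0.545 and 0.670 FPKM with STING, against 0.526 and 0.727 FPKM with vector. STAT2 averaged under 1 FPKM and was not tested. Of 9 genes for interferon receptors and ISGF3, 6 were tested, and 1 fell and 0 rose, against 9.29% and 2.51% of all genes. That gene was IFNAR2, a receptor chain, with 16.1 and 18.2 FPKM with STING, against 30.9 and 26.4 FPKM with vector (log2 change -0.71, SE 0.18, limma adjusted p = 0.041).

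UBE2L6, the conjugating enzyme of ISG15, fell to 3.35 and 3.36 FPKM with STING, against 7.30 and 7.15 FPKM with vector (log2 change -0.92, SE 0.21, limma adjusted p = 0.0309). USP18, which removes ISG15, had 4.68 and 6.17 FPKM with STING, against 4.84 and 4.82 FPKM with vector (limma adjusted p = 0.764). Of the 7 genes of ISG15 conjugation and removal, 3 were tested, and 1 fell and 0 rose. Among all genes tested 9.29% fell and 2.51% rose.

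A wider list held 48 other interferon-stimulated genes, of which 17 were tested. Of these 4 passed as lower and 0 as higher, against 9.29% lower and 2.51% higher among all genes tested. A positive change was seen in 10 and a negative change in 7. Their median change was 0.26, against -0.05 for all genes. LGALS3BP, a secreted glycoprotein, had 0.144 and 0.157 FPKM with STING, against 2.23 and 3.07 FPKM with vector (log2 change -1.65, SE 0.28, limma adjusted p = 0.00975). LGALS3BP passed the minimum mean of 1 only through the vector libraries, where it is high. IFI30, a lysosomal thiol reductase, had 36.0 and 33.5 FPKM with STING, against 65.3 and 68.6 FPKM with vector (log2 change -0.93, SE 0.14, limma adjusted p = 0.00666). SHISA5 and B2M, the light chain of MHC class I, were the other 2 that fell. Of 12 relatives of the named families 4 were tested. Of these 2 fell and 0 rose, against 9.29% lower and 2.51% higher among all genes tested. IFI27L2, a relative of IFI6, was 1 of the 2 that fell. It had 57.2 and 47.9 FPKM with STING, against 128 and 108 FPKM with vector (log2 change -1.15, SE 0.15, limma adjusted p = 0.00449).

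**Figure D3:**
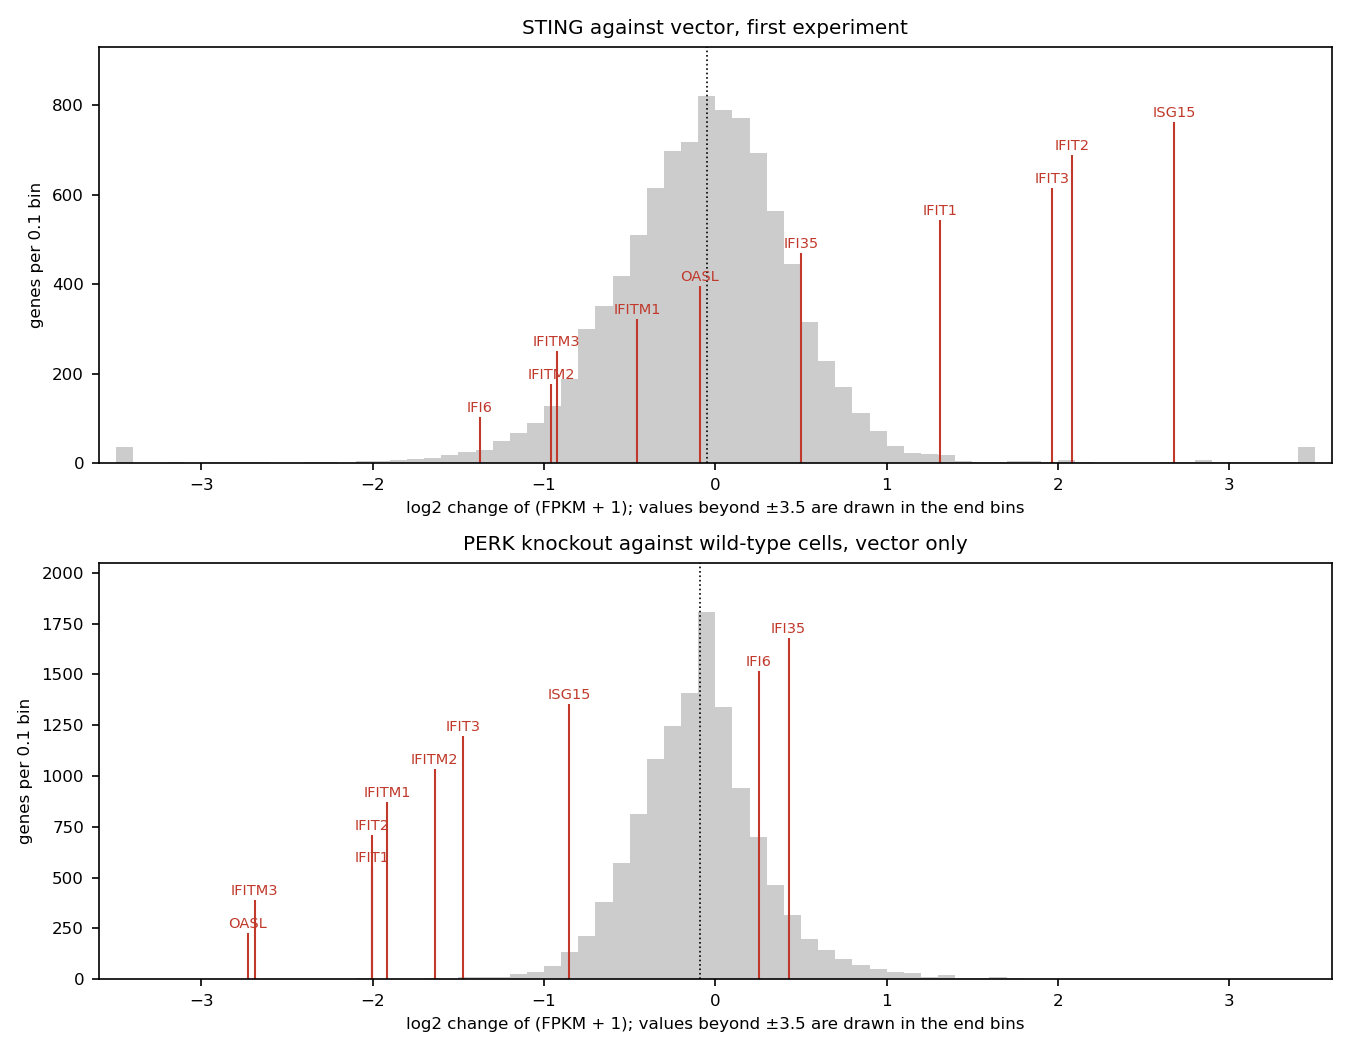
Histograms of the log2 change of (FPKM + 1) over all genes tested (grey, genes per bin of 0.1; dotted line, their median) for STING against vector in the first experiment and for PERK KO against wild-type cells with vector, with the 10 genes marked in red at heights that only keep the names apart. In the upper panel the IFIT genes and ISG15 lie on the right and IFI6 on the left; in the lower panel OASL and IFITM3 lie at -2.73 and -2.69, against a median of -0.09 over all genes.

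In the knockout experiment STING was set against vector within each genotype, with 1 estimate of spread over the 8 libraries. None of the 10 genes passed in PERK KO cells or in wild-type cells with limma, where 0.00816% of 12254 genes passed in each genotype, which is TMEM173 alone. In PERK KO cells 0 of the 10 genes had an unadjusted p under 0.05, and 944 genes of all did. In wild-type cells 2 of the 10 did, ISG15 and IFI6, and 1570 genes of all. The median gene changed by -0.11 in PERK KO cells and by -0.27 in wild-type cells. With median-of-ratios scaling these medians were 0.04 and 0.05, so changes are also given relative to the median gene.

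ISG15 had 75.3 and 71.8 FPKM in PERK KO cells with STING, against 52.6 and 51.6 FPKM with vector. In wild-type cells it had 168 and 124 FPKM with STING, against 109 and 82.7 FPKM with vector. In both genotypes each STING library lay above each vector library, as for 5.66% and 3.31% of all genes in PERK KO and wild-type cells. The log2 change was 0.49 in PERK KO cells (SE 0.21, limma adjusted p = 0.647) and 0.60 in wild-type cells (SE 0.21, limma adjusted p = 0.384). Relative to the median gene it was 0.60 in PERK KO cells and 0.87 in wild-type cells. The difference between these responses, tested as an interaction, was -0.11 (SE 0.30, limma adjusted p = 0.975).

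IFI6 lay on the lower side with STING in both genotypes. It had 67.5 and 82.5 FPKM in PERK KO cells with STING, against 94.4 and 112 FPKM with vector (log2 change -0.45, limma adjusted p = 0.685). In wild-type cells it had 64.3 and 51.0 FPKM with STING, against 97.1 and 75.9 FPKM with vector (log2 change -0.57, limma adjusted p = 0.384). Both STING libraries were below both vector libraries in each genotype, as for 21.9% of all genes in PERK KO cells and 52.3% in wild-type cells. Relative to the median gene the change was -0.35 in PERK KO cells and -0.31 in wild-type cells.

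No IFIT gene passed in either genotype of the knockout experiment. IFIT1 had 3.42 and 3.46 FPKM in PERK KO cells with STING, against 1.63 and 3.03 FPKM with vector. Both STING libraries were higher without overlap, as for 5.66% of all genes in PERK KO cells. In wild-type cells IFIT1 had 12.9 and 10.6 FPKM with STING, against 9.58 and 15.1 FPKM with vector, and those groups overlapped. IFIT2 had 1.06 and 1.19 FPKM in PERK KO cells with STING, against the floor of 1 in both vector libraries. In wild-type cells IFIT2 had 8.59 and 7.60 FPKM with STING, against 5.05 and 9.61 FPKM with vector, again with overlap. These PERK KO levels are at or near the floor. IFIT3 was at the floor in both STING libraries of PERK KO cells, against 1.89 and 1.07 FPKM with vector. In wild-type cells IFIT3 had 7.88 and 8.25 FPKM with STING, against 4.52 and 7.35 FPKM with vector. The STING libraries were both higher there, as for 3.31% of all genes. Changes in the IFIT genes ran from -0.29 to 0.45 in PERK KO cells and from -0.04 to 0.42 in wild-type cells (log2, limma adjusted p of at least 0.458).

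IFITM1 had 25.4 and 41.1 FPKM in PERK KO cells with STING, against 39.1 and 34.5 FPKM with vector. In wild-type cells IFITM1 had 130 and 136 FPKM with STING, against 179 and 111 FPKM with vector. IFITM2 had 34.7 and 26.9 FPKM in PERK KO cells with STING, against 41.1 and 25.3 FPKM with vector. The IFITM1 groups overlapped in both genotypes, and those of IFITM2 in PERK KO cells. In wild-type cells IFITM2 had 82.2 and 67.8 FPKM with STING, against 112 and 93.9 FPKM with vector, so that the STING libraries were both lower. IFITM3 had 15.0 and 7.15 FPKM in PERK KO cells with STING, against 14.1 and 15.5 FPKM with vector, which overlapped. In wild-type cells IFITM3 had 81.2 and 72.6 FPKM with STING, against 113 and 90.2 FPKM with vector, with both STING libraries lower. Both STING libraries were lower for 52.3% of all genes in wild-type cells. Relative to the median gene the change there was -0.19 for IFITM2 and -0.12 for IFITM3. The direction in wild-type cells depends on scaling for IFIT1, IFITM1 and OASL, whose changes were above 0 with median-of-ratios scaling. IFITM2 and IFITM3 stood at -0.069 and -0.007 with that scaling. Limma adjusted p for the IFITM genes was at least 0.783 in PERK KO cells and at least 0.44 in wild-type cells.

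OASL had 4.11 and 2.19 FPKM in PERK KO cells with STING, against 5.05 and 2.30 FPKM with vector, and the groups overlapped. In wild-type cells OASL had 26.0 and 22.3 FPKM with STING, against 29.4 and 27.97 FPKM with vector, with both STING libraries lower (limma adjusted p = 0.734). Of all genes 52.3% did so in wild-type cells, and relative to the median gene the change of OASL was 0.03. IFI35 stood at 1 and 1.44 FPKM in PERK KO cells with STING, against 2.21 and 1.25 FPKM with vector. In wild-type cells IFI35 stood at 1.06 and 1.18 FPKM with STING, against the floor of 1 in both vector libraries. These IFI35 values lie too near the floor to order the groups.

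The test of the difference of the STING response between genotypes called 0 of the 10 genes and 0.0% of all 12254 genes with limma. At an unadjusted p under 0.05 it had 0 of the 10 genes and 474 of all. The largest of the 10 differences was that of IFIT3, at -0.71 (SE 0.38, limma adjusted p = 0.966). The lower TMEM173 level of the PERK KO cells with STING stands beside these responses, and its part in these responses was not tested.

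The last comparison set PERK KO cells against wild-type cells with vector, without STING. A set of 8 genes, ISG15, the 3 IFIT genes, the 3 IFITM genes and OASL, had both PERK KO libraries below both wild-type libraries. Of all genes 25.8% did so. None of these 8 passed the limma test after adjustment over 12254 genes, where 0.049% of all genes passed, 0.0326% higher and 0.0163% lower, and the adjusted p ran from 0.0521 for IFITM3 to 0.222 for ISG15. At an unadjusted p under 0.05 there were 9 of the 10 genes, these 8 as lower and IFI35 as higher, against 1516 of all. With median-of-ratios scaling 5 of the 10 passed as lower (IFIT1, IFIT2, IFITM1, IFITM3 and OASL, limma adjusted p 0.0204 to 0.0411), and with a minimum mean of 5 also 5 (IFIT1, the 3 IFITM genes and OASL, 0.00814 to 0.0255). IFIT1 and OASL averaged under 5 FPKM in PERK KO cells and passed that minimum only through the wild-type libraries. With a replicate block, which takes same-numbered libraries together, 6 of the 10 passed as lower (IFIT1, IFIT2, the 3 IFITM genes and OASL). That setting called 105 genes of all. With 1 library left out the log2 change of IFITM3 ran from -2.853 to -2.527. With only the 4 libraries compared 0 of the 10 passed, and without trend and robust estimation 0 passed too. The median change of the 10 genes was -1.78, and that of all genes tested was -0.09.

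OASL showed the lowest ratio among the genes that were off the floor, with 5.05 and 2.30 FPKM in PERK KO cells, against 29.4 and 27.97 FPKM in wild-type cells. The PERK KO mean was 0.128 of the wild-type mean (log2 change -2.73, SE 0.34, limma adjusted p = 0.0558). IFITM3 had 14.1 and 15.5 FPKM in PERK KO cells, against 113 and 90.2 FPKM in wild-type cells (log2 change -2.69, SE 0.31, limma adjusted p = 0.0521). IFITM1 had 39.1 and 34.5 FPKM in PERK KO cells, against 179 and 111 FPKM in wild-type cells (log2 change -1.92, SE 0.29, limma adjusted p = 0.0751). The 2 genotypes were several-fold apart in these genes while libraries of 1 genotype differed less. IFITM2 had 41.1 and 25.3 FPKM in PERK KO cells, against 112 and 93.9 FPKM in wild-type cells (log2 change -1.64, SE 0.27, limma adjusted p = 0.0928).

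The IFIT genes neared the floor in PERK KO cells. IFIT2 was at the floor of 1 in both PERK KO libraries, against 5.05 and 9.61 FPKM in wild-type cells (log2 change -2.002, SE 0.28, limma adjusted p = 0.0627). IFIT1 had 1.63 and 3.03 FPKM in PERK KO cells, against 9.58 and 15.1 FPKM in wild-type cells (log2 change -2.004, SE 0.30, limma adjusted p = 0.0644). IFIT3 had 1.89 and 1.07 FPKM in PERK KO cells, against 4.52 and 7.35 FPKM in wild-type cells (log2 change -1.47, SE 0.27, limma adjusted p = 0.118). Because values under 1 were set to 1, the distance between the genotypes may be understated for IFIT2. ISG15 differed least of the 8, with 52.6 and 51.6 FPKM in PERK KO cells, against 109 and 82.7 FPKM in wild-type cells (log2 change -0.85, SE 0.21, limma adjusted p = 0.222).

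IFI6 and IFI35 did not share this pattern. IFI6 had 94.4 and 112 FPKM in PERK KO cells, against 97.1 and 75.9 FPKM in wild-type cells, and the groups overlapped (log2 change 0.26, SE 0.22, limma adjusted p = 0.654). IFI35 had 2.21 and 1.25 FPKM in PERK KO cells, against the floor of 1 in both wild-type libraries (log2 change 0.43, limma adjusted p = 0.385). With STING in both genotypes the same 8 genes again had both PERK KO libraries below both wild-type libraries, as did 20.6% of all genes. The PERK KO mean with STING was 0.130 of the wild-type mean for OASL, 0.144 for IFITM3 and 0.504 for ISG15. These STING libraries are other libraries of the same cells, and no test was made on them.

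**Figure D4:**
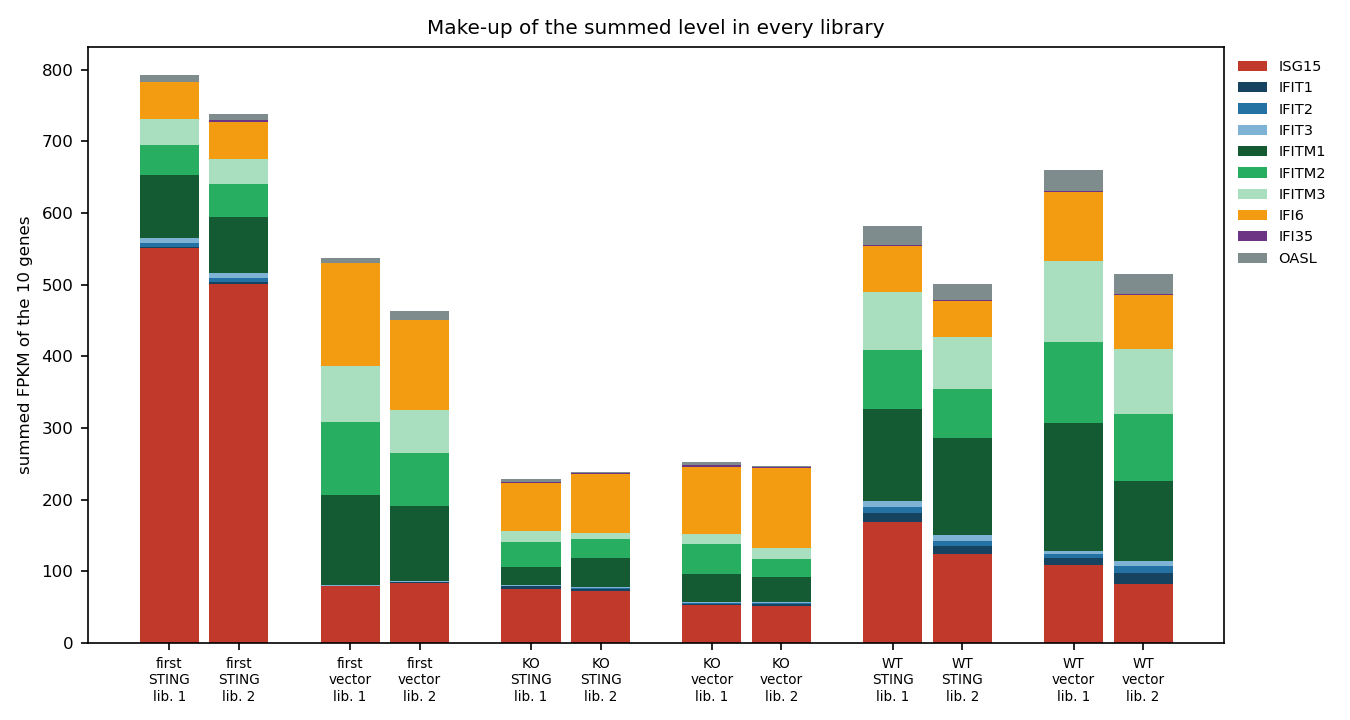
Summed FPKM of the 10 genes in every library as stacked bars from 0, coloured by gene, with first-experiment and knockout-experiment tables not on a shared scale. The sums were 229 and 239 in PERK KO cells with STING and 253 and 247 with vector, against 582 and 501 in wild-type cells with STING and 660 and 515 with vector; ISG15 fills most of the bar in the STING libraries of the first experiment.

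The 3 IFITM genes carried much of the genotype difference in summed level. Their summed FPKM was 94.3 and 75.4 in PERK KO cells with vector, against 405 and 295 in wild-type cells with vector. The summed IFIT genes reached 4.52 and 5.10 FPKM in PERK KO cells, against 19.1 and 32.1 FPKM in wild-type cells. Both sums had every PERK KO library below every wild-type library. In the first experiment the summed IFIT genes had been 14.3 and 16.0 FPKM with STING, against 1.59 and 2.87 FPKM with vector. The tables were normalised separately, so these sums are set side by side and not compared.

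Upstream genes were read across genotypes as well. IFNB1 was at the floor of 1 in both PERK KO libraries with vector, against 7.02 and 7.65 FPKM in wild-type cells (log2 change -2.06, SE 0.28, limma adjusted p = 0.0605). With STING it had 1.37 and 1.42 FPKM in PERK KO cells, against 6.97 and 3.504 FPKM in wild-type cells. With vector, PERK KO and wild-type libraries overlapped for STAT2 and USP18, and IRF9 had 3.40 and 3.56 FPKM in PERK KO cells, against 3.36 and 2.97 FPKM in wild-type cells. The limma adjusted p of these 3 genes was at least 0.558. Of 9 receptor and ISGF3 genes 0 passed, where 0.049% of all genes did, with a median change of 0.01.

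The wider interferon list had no gene past the threshold between genotypes, where 0.049% of all genes passed. Of 48 other interferon-stimulated genes 29 were tested, and 12 had a positive and 14 a negative change, with a median of 0, against -0.09 for all genes. LGALS3BP had 21.9 and 37.2 FPKM in PERK KO cells, against 4.82 and 8.05 FPKM in wild-type cells (log2 change 2.03, SE 0.35, limma adjusted p = 0.105). UBE2L6 had 17.4 and 26.6 FPKM in PERK KO cells, against 8.21 and 10.8 FPKM in wild-type cells (limma adjusted p = 0.243). Of 7 HEK293 markers tested, 1 passed between genotypes, KRT8. Summed, the 7 markers ranged from 294 to 391 FPKM in PERK KO cells with vector, against a range of 167 to 234 FPKM in wild-type cells with vector. VIM was the largest part of these sums, with 173 and 223 FPKM in PERK KO cells, against 86.9 and 136 FPKM in wild-type cells. KRT18 overlapped, with 50.4 and 81.9 FPKM in PERK KO cells, against 53.9 and 63.1 FPKM in wild-type cells. Of the 7 markers 6 had a positive and 1 a negative change. KRT8, a keratin, had 54.7 and 65.2 FPKM in PERK KO cells, against 15.6 and 18.6 FPKM in wild-type cells. Of the 6 fibroblast markers 1 was listed, at no more than 1.18 FPKM with vector, and the 3 listed of 8 blood cell markers summed to a range of 6.15 to 16.7 FPKM in PERK KO cells, against 8.21 to 11.5 FPKM in wild-type cells. The part of these marker levels in the levels of the 10 genes was not tested.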

How the data were processed

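Polysome-fraction RNA of 12 HEK293 libraries was used as deposited. The authors made the FPKM values with TopHat2 2.1.1 and Cufflinks 2.2.1 on hg19, per the submitters' processing notes; which annotation or filters they used is not stated there. The deposited knockout table names no unit; its values were taken to be FPKM raised to 1 where lower. Depth is unknown; pile-ups of ratios among low values put relative depth at 0.886 to 1 in the first experiment and, from weaker pile-ups, at 0.823 to 1.29 in the knockout experiment.

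Groups and replicate numbers came from titles. Limma 3.58.1 in R 4.3.3 was fitted on log2(FPKM + 1) to each whole table, with an intensity trend and robust estimation. Genes entered with a mean of 1 or more unless constant. Tests were two-sided, with Benjamini-Hochberg adjustment at 0.05. Changes on this scale understate those of low genes. The fit was tested on simulated data. All 10 genes are named. Other listed genes are named where they passed (up to 6 per comparison) or were listed by name, as are the 5 genes most like ISG15 and IFI6. VIM, KRT8 and KRT18 were named after their values were seen. The 10 genes and the lists were chosen with earlier results of these data known. The alternatives were other pseudocounts (0.1 and 5), minimum means, scalings, estimation without trend, a replicate block, 4 libraries alone, and libraries left out. A gene of the pathway lists is not reported here.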

Additional observations from a re-analysis of the deposited data

Results flagged for a closer look

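For IFIT3 both STING libraries lay above both vector libraries in the first experiment and in wild-type cells, and below them in PERK KO cells, where the change did not pass. Of all genes 24.2% lay above in this way in the first experiment and 3.31% in wild-type cells, and 21.9% lay below in PERK KO cells. The PERK KO vector libraries had 1.89 and 1.07 FPKM of IFIT3, the latter near the floor. The log2 change of IFIT3 was 1.97 in the first experiment and -0.29 in PERK KO cells (SE 0.27, limma adjusted p = 0.849). This difference lies across separately normalised tables and was not tested. In wild-type cells the change was 0.42 (SE 0.27, limma adjusted p = 0.458). The difference between PERK KO and wild-type cells was -0.71 as an interaction (SE 0.38, limma adjusted p = 0.966), and both PERK KO libraries with STING stood at the floor of 1.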

How the results depend on the processing

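In the first experiment 1117 genes passed, against 580 with no filter, 17 without trend and robust estimation, and 42 to 819 with 1 library left out. Of the 10 genes 7 passed, against 4 with a minimum mean of 5 (6 tested), 1 without trend, and 1 to 6 with 1 library left out. For PERK KO against wild-type cells with vector, 6 genes and 0 of the 10 passed. These counts were 17 and 2 with pseudocount 0.1, 9 and 2 with pseudocount 5, 32 and 5 with a minimum mean of 5, 53 and 5 with median-of-ratios scaling, 24 and 1 with quantile normalisation, 0 and 0 without trend, 0 and 0 with only the 4 libraries compared, and 0 to 3 and 0 to 1 with 1 library left out. STING against vector called 1 to 3 genes in PERK KO cells and 1 to 2 in wild-type cells with 1 library left out. The causes were not tested.

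Deviations of same-numbered libraries had r = 0.084 in the first experiment and 0.105 to 0.605 in the knockout experiment. Between PERK KO and wild-type cells with vector r was 0.554. Between STING and vector it was 0.605 in PERK KO cells and 0.291 in wild-type cells. With 2 numbers per group, the main fit took the libraries to share only a number. Whether they share more was not tested. With a replicate block the first experiment called 1587 genes and also IFITM1 (limma adjusted p = 0.0259). The block called 105 genes and 6 of the 10 between genotypes (IFIT1, IFIT2, the 3 IFITM genes and OASL, 0.0158 to 0.0397), and 2 genes for STING in PERK KO cells.

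Signs turned for small changes. In wild-type cells the STING change was 0.32 for IFIT1, 0.30 for IFITM1 and 0.13 for OASL with median-of-ratios scaling, and 0.31, 0.29, 0.15 and, for IFITM3, 0 with quantile normalisation. In PERK KO cells it was 0.005 and 0.107 for IFITM1 and IFITM2 with median-of-ratios scaling, and 0.042 and 0.141 with quantile normalisation. The interaction was 0.029 for IFITM3 with pseudocount 5, -0.078 for IFI6 and -0.139 for OASL with median-of-ratios scaling, and -0.037 and -0.208 with quantile normalisation. With 1 library left out, first-experiment changes ran from -0.134 to 1.139 for IFI35 and from -0.388 to 0.209 for OASL. In wild-type cells they ran from -0.345 to 0.263 for IFIT1, -0.225 to 0.586 for IFIT2 and -0.43 to 0.251 for IFITM1. In PERK KO cells they ran from -0.513 to 0.159 for IFITM1, -0.413 to 0.263 for IFITM2, -0.958 to 0.017 for IFITM3 and -0.583 to 0.293 for OASL. The interaction ran from -0.056 to 0.295 for IFI6, -0.5 to 0.311 for IFIT2, -0.428 to 0.253 for IFITM1, -0.565 to 0.409 for IFITM3, -0.327 to 0.11 for ISG15 and -0.342 to 0.534 for OASL.

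With 2 libraries a group, unknown depth and a floor of 1, changes of IFIT2, IFIT3 and IFI35 in PERK KO cells could not be resolved. A setting that leaves 1 library in a group assumes that it varies like the other groups.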

Other observations

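The genes whose profile was most like that of ISG15 were PPP1R15A, CITED1, TRAF4, ATF3 and CYR61. Likeness was Pearson r of log2(FPKM + 1) over 12 libraries, centred in each table, for the 4839 genes that averaged 5 or more in both. It ran from 0.955 for PPP1R15A to 0.901 for CYR61 and is given as a description, since the libraries share plasmids and experiments. The log2 change of ISG15 with STING was 2.68 in the first experiment, 0.49 in PERK KO cells and 0.60 in wild-type cells. PPP1R15A had 23.0 and 27.1 FPKM with STING in the first experiment, against 9.71 and 10.6 FPKM with vector. In wild-type cells PPP1R15A overlapped, with 72.5 and 63.2 FPKM with STING, against 56.9 and 65.2 FPKM with vector. ATF3, a stress-induced transcription factor, had 55.0 and 51.3 FPKM with STING in the first experiment, against 13.1 and 8.34 FPKM with vector. In PERK KO cells ATF3 had 20.0 and 23.5 FPKM with STING, against 11.9 and 14.6 FPKM with vector, and in wild-type cells 26.1 and 28.8 FPKM with STING, against 16.3 and 20.5 FPKM with vector. In all 3 pairs both STING libraries of ATF3 lay above both vector libraries. Of these ISG15-like genes only ATF3 did so, since the others overlapped in PERK KO cells. The shares of all genes were 24.2% in the first experiment, 5.66% in PERK KO cells and 3.31% in wild-type cells. ATF3 was picked by its likeness to ISG15 over these same libraries. Among the 10 genes, IFI6 had r = -0.902 with ISG15, and the IFITM genes and OASL had r between -0.02 and 0.375.

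Most like IFI6 were NDUFAF3, TMEM219, C14orf1, TMEM14C and NDUFS8, with r between 0.968 and 0.989. NDUFAF3, an assembly factor of respiratory complex I, had 399 and 414 FPKM with STING in the first experiment, against 898 and 811 FPKM with vector.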
